A study of Homo sapiens with 8 samples.

Results

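The transcripts of 10 human tubulin genes were followed in A673, a long-established line of Ewing Sarcoma cells, after exposure to JIB-04, a small molecule that inhibits Jumonji-domain histone demethylases. The genes were chosen by symbol from the FPKM table (fragments per kilobase of transcript scaled to the mapped reads of the library), and comprise 3 alpha-tubulin genes (TUBA1A, TUBA1B and TUBA1C), 6 beta-tubulin genes (TUBB, TUBB2A, TUBB2B, TUBB3, TUBB4B and TUBB6) and the gamma-tubulin gene TUBG1, of 65962 genes in all. Where a symbol had several gene identifiers, the one with the highest mean was kept. TUBB had 8 identifiers, of which the other 7 were listed at 0, and TUBB3 had a second identifier at no more than 1.63 FPKM. RNA-seq libraries were made from 4 samples exposed to 2 μM JIB-04 for 36 hours and from 4 samples exposed to vehicle (DMSO) for the same time. All samples came from the one cell line, and the study's methods say that each group was treated in quadruplicate without saying whether the cultures were independent, so that a p-value here reflects no more than the variation among these 8 libraries.

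Tubulins are the building blocks of microtubules. An alpha and a beta subunit join head to tail as a dimer, dimers add end to end to form protofilaments, and gamma-tubulin sits in a ring-shaped complex from which new microtubules grow. Cells carry several alpha and beta genes (isotypes) whose products co-assemble and differ mainly in their acidic carboxy-terminal tails, where modifying enzymes and motor proteins bind. Tubulin mRNAs are also regulated by their own product: when unpolymerized dimers accumulate, the factor TTC5 recognizes the first residues of a nascent alpha or beta chain on the ribosome, and the mRNA being translated is degraded. Gamma-tubulin is not known to be under this control.

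The genes lie on several chromosomes in GRCh38 (GENCODE release 29), and all are protein-coding. The 3 alpha genes are neighbours on chromosome 12, with TUBA1B at chr12:49127782-49131397 and TUBA1A at chr12:49184796-49189324 on the minus strand, and TUBA1C at chr12:49188736-49274603 on the plus strand. The annotated extents of TUBA1A and TUBA1C overlap on opposite strands. The library kit keeps the strand, but the sources used here do not say whether counting used it. TUBB2A (chr6:3153669-3157526, minus strand) and TUBB2B (chr6:3224261-3231730, minus strand) are neighbours, whereas TUBB lies elsewhere on the same chromosome (chr6:30720201-30725426, plus strand). TUBB3 (chr16:89921392-89938761), TUBB4B (chr9:137241213-137243707), TUBB6 (chr18:12307669-12344320) and TUBG1 (chr17:42609676-42615234) are each on the plus strand of a chromosome of their own.

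The first 12 coding bases of each gene are shown because their codons spell the start of the protein that the autoregulatory machinery reads. They are copied from the GENCODE 29 transcripts.
TUBA1A: atgcgtgagtgc
TUBA1B: atgcgtgagtgc
TUBA1C: atgcgtgagtgc
TUBB: atgagggaaatc
TUBB2A: atgcgcgagatc
TUBB2B: atgcgtgagatc
TUBB3: atgagggagatc
TUBB4B: atgagggaaatc
TUBB6: atgagggagatc
TUBG1: atgccgagggaa
The 3 alpha genes share the same 12 bases. The 6 beta genes use 4 spellings, and TUBG1 begins differently from all of them.

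The coding sequences are close relatives, which bears on how reads can be assigned. Over the whole coding sequence TUBA1A and TUBA1B were 97.2% identical, TUBA1B and TUBA1C 96.8%, and TUBB2A and TUBB2B 98.1%, whereas other pairs of beta genes were 80.9% to 87.7% identical. The last 60 coding bases, which hold the codons of the acidic tail and the stop codon, are shown for TUBB2A and TUBB2B, the closest pair, with capitals at the bases that differ between them.
TUBB2A: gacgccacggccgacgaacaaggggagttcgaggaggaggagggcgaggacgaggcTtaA
TUBB2B: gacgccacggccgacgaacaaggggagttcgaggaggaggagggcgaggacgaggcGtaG
The pair has 2 differences in this stretch. They fall in an alanine codon and in the stop codon, and neither changes the encoded protein. Of all 50-base stretches of the transcript, 65.5% of those of TUBB2A, 62.7% of TUBA1B, 52.2% of TUBB2B, 41.1% of TUBA1A and 25.1% of TUBA1C also occur in another gene. The share was 89.4% for TUBB3, because an overlapping gene model of the same strand (ENSG00000198211, AC092143.1) contains most of it, 29.9% for TUBG1 (mainly TUBG2), 18.2% for TUBB (mainly the pseudogene TUBBP1), 9.89% for TUBB4B and 0.993% for TUBB6. At 151 bases, the read length given in the labels (the methods give 50 cycles), the shares dropped to 49.3% for TUBB2A, 39.3% for TUBB2B, 19% for TUBA1B, 6.74% for TUBA1A, 6.7% for TUBA1C, 6.09% for TUBG1, 2.46% for TUBB and 0% for TUBB4B and TUBB6, and remained at 88.7% for TUBB3. The overlapping gene model is the second identifier of TUBB3, which was given no more than 1.63 FPKM. Levels within the alpha group, within the TUBB2A/TUBB2B pair and of TUBB3 are therefore uncertain to the extent that Cufflinks divided shared reads.

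The 250 bases upstream of the annotated start are shown for the 2 pairs of closely related genes that moved apart after treatment. They come from RefSeq on GRCh38.p14, in which all 10 genes matched. Capitals mark CCAAT or its reverse complement ATTGG (both strands searched) and TATAAA (forward strand).
TUBA1A (chr12:49189081-49189330, minus strand): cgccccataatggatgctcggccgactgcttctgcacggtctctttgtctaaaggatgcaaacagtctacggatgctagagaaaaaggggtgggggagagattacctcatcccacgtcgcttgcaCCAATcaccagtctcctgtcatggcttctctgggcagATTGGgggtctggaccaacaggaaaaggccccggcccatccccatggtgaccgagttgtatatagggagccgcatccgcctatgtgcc
TUBA1B (chr12:49131396-49131645, minus strand): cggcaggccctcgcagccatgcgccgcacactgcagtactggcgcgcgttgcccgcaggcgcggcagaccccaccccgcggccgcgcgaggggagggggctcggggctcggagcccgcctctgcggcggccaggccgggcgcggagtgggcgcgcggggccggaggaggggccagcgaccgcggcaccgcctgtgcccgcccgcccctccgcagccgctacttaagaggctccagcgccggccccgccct
TUBB2A (chr6:3157545-3157794, minus strand): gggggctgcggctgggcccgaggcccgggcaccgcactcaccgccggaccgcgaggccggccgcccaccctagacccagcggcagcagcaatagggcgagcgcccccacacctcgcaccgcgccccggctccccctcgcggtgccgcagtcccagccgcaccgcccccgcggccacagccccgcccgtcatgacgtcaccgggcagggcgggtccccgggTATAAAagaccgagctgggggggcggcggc
TUBB2B (chr6:3227654-3227903, minus strand): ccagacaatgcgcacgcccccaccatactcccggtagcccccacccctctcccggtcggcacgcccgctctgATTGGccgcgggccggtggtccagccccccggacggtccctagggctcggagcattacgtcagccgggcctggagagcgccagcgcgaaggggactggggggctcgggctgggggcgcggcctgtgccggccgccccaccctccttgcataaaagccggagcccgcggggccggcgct
The TUBA1A window holds 2 CCAAT matches, at 125 and 88 bases before the start, and the TUBA1B window holds 0. In the other pair, TUBB2B holds 1 CCAAT match and no TATAAA, and TUBB2A holds a TATAAA and no CCAAT. Across all windows of the 10 genes, CCAAT occurred in at least 1 window of 8 genes, against 32% of the 35116 windows of all genes. TATAAA occurred in TUBB2A alone, against 6.8% of windows. TTTGAA or TTCGAA (both strands, the letters of the cell cycle homology region) occurred in TUBA1C, TUBB3 and TUBB4B, against 14.3% of windows. TUBA1C, TUBB, TUBB3 and TUBB6 have more than 1 window, which raises their chance of a match, and a match is a run of letters, not a bound site.

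The FPKM of the libraries summed to 1175407 to 1237186 with JIB-04 and to 1346289 to 1370436 with vehicle. Transcripts of the mitochondrial genome took 4.59% to 5.54% of the FPKM with JIB-04 and 9.99% to 10.6% with vehicle. Read totals are not given in the sources used here, and steps between low values gave a relative depth of 0.766 to 0.959 with JIB-04 and of 0.828 to 1 with vehicle, as a ratio to vehicle replicate 1. Rescaling the FPKM to TPM (a scaling that gives every library the same total) raised the log2 fold changes of all genes by a median of 0.16, so that a change of that size depends on the scaling. All 8 Ewing Sarcoma markers examined passed the filter on level (a mean of 1 FPKM), and by the limma test described below 6 were lower, 1 was higher and 1 did not pass. By the same test, 38.0% of all genes tested were lower and 34.2% were higher. CD99 was at 599 FPKM with JIB-04 and 1160 FPKM with vehicle, and PRKCB (log2 fold change -0.64) and NKX2-2 (-0.77) were also lower. The decreases of CAV1 (-0.19), STEAP1 (-0.21) and EWSR1 (-0.23) were little larger than the median shift of 0.16. Marker values after rescaling are not given here. FLI1, the one higher marker, was at 71.3 FPKM with JIB-04 and 60.4 FPKM with vehicle. Of 14 markers of other cell types, 5 reached a mean of 1 FPKM, of which SNAP25 and ITGAM were higher, NEFM and SYP were lower and NEFL did not pass. The whole list summed to 164 to 185 FPKM with JIB-04 and 229 to 249 FPKM with vehicle, a sum made up mostly of NEFM (104 FPKM with JIB-04 and 163 FPKM with vehicle). ITGAM (leukocytes) was at 2.39 FPKM with JIB-04 and 0.2955 FPKM with vehicle (log2 fold change 1.84, limma adjusted p = 3.67e-05), and PECAM1 (endothelium), below the filter, at 1.29 FPKM with JIB-04 and 0.568 FPKM with vehicle. PTPRC (leukocytes) was at 0.0475 FPKM with JIB-04 and 0.021 FPKM with vehicle, EPCAM (epithelium) at 0.146 FPKM with JIB-04 and 0.23 FPKM with vehicle, and MYOG (muscle) was listed at 0 in every library.

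JIB-04 shifted the tubulin genes in both directions. Against vehicle, 6 of the 10 genes were lower (TUBA1B, TUBB, TUBG1, TUBB4B, TUBB2B and TUBA1C), 3 were higher (TUBB2A, TUBA1A and TUBB3), and TUBB6 did not pass the test. The test was limma on log2(FPKM + 0.5) over the 17460 genes whose mean over the 8 libraries reached 1 FPKM, with Benjamini-Hochberg adjusted p under 0.05 taken as a change. All 10 tubulin genes passed that filter. Of all genes tested, 38.0% were lower and 34.2% were higher by the same rule, so the share of higher tubulin genes was near that of all genes. At least 2-fold, 3 tubulin genes were lower (TUBA1B, TUBB and TUBG1), against 11.8% of all genes, and 1 was higher (TUBB2A), against 13.1% of all genes. The JIB-04 and vehicle libraries did not overlap for 8 of the 10 genes, against 67.3% of all genes. The median log2 fold change of the 10 genes was -0.51, against -0.066 for all genes tested. In these bulk samples, fewer cells of a kind and less RNA per cell cannot be told apart.

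**Figure D1:**
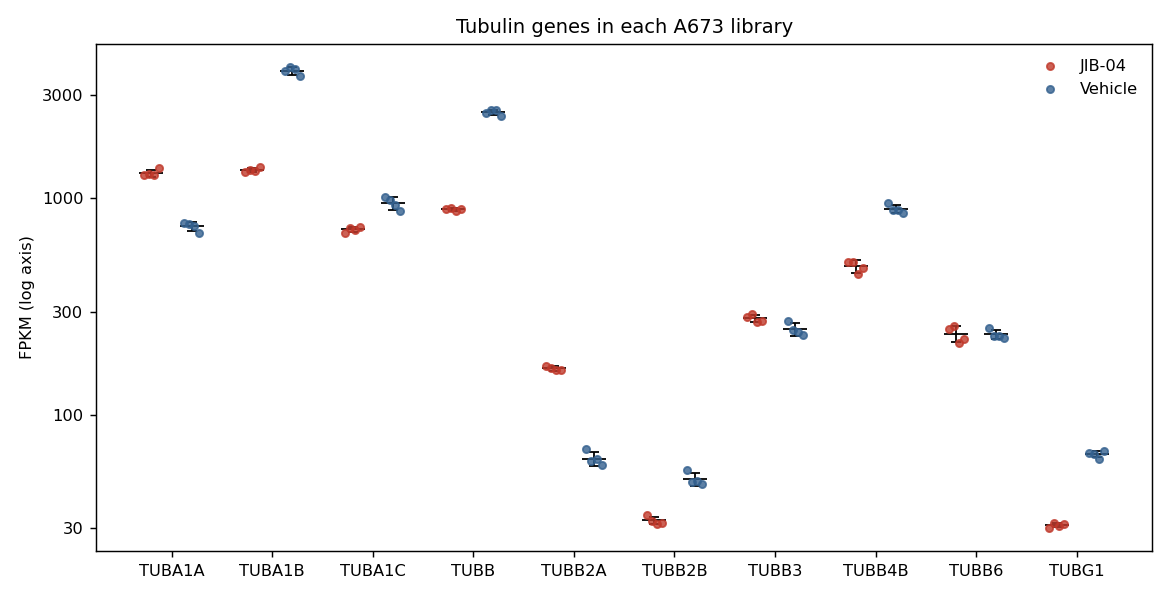
FPKM (log axis) of the 10 tubulin genes in each library. Each point is a library, JIB-04 in red left of vehicle in blue, and the black marks give the mean and SD of 4 libraries. TUBA1B and TUBB stand highest with vehicle, at means of 3876 and 2491 FPKM, and at 1351 and 888 FPKM with JIB-04, while the points overlap for TUBB3 and TUBB6.

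TUBA1B, a widely expressed alpha isotype of dividing cells and the highest of the 10 transcripts with vehicle, had the lowest log2 fold change of the 10. It measured 1320, 1346, 1340 and 1398 FPKM in the 4 JIB-04 libraries, against 3860, 4020, 3959 and 3665 FPKM in the 4 vehicle libraries. The highest JIB-04 library thus lay far under the lowest vehicle library. The means were 1351 ± 33.4 FPKM with JIB-04 and 3876 ± 155 FPKM with vehicle (SD, n = 4 each), a 2.87-fold lower level with JIB-04 and a log2 fold change of -1.52 (SE 0.036, limma adjusted p = 2.79e-09). Only 4.13% of all genes tested had a lower log2 fold change.

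TUBA1A, an alpha isotype best known from developing neurons, moved the opposite way. Its level was 1281, 1288, 1278 and 1376 FPKM with JIB-04, against 773, 761, 745 and 688 FPKM with vehicle. Every JIB-04 library was above every vehicle library, and JIB-04 replicate 4 stood above the other 3 treated libraries, which lay within 10 FPKM of each other. The means were 1306 ± 47.1 FPKM with JIB-04 and 742 ± 37.6 FPKM with vehicle, a 1.76-fold rise with a log2 fold change of 0.82 (SE 0.045, limma adjusted p = 2.57e-07).

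TUBA1C, the third alpha gene, showed a smaller decrease. The JIB-04 libraries measured 694, 730, 717 and 737 FPKM and the vehicle libraries 1016, 981, 928 and 871 FPKM, again without overlap. The log2 fold change was -0.40 (SE 0.05, limma adjusted p = 6.63e-05), and it was -0.23 after rescaling to TPM, with an adjusted p of 0.0025 by limma.

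TUBB, the main beta isotype of dividing cells, fell nearly as far as TUBA1B. It was at 889, 898, 870 and 895 FPKM with JIB-04, against 2484, 2543, 2542 and 2395 FPKM with vehicle. The groups were widely separated, and the spread within the treated group was the smallest of the 10 genes, at a coefficient of variation of 1.43%. The log2 fold change was -1.49 (SE 0.03, limma adjusted p = 1.33e-09), corresponding to means of 888 ± 12.7 FPKM with JIB-04 and 2491 ± 69.6 FPKM with vehicle.

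TUBB4B, a broadly expressed beta isotype that is also used in cilia, was lower as well. Its values were 510, 510, 445 and 475 FPKM with JIB-04 and 947, 883, 881 and 856 FPKM with vehicle. No treated library came near the vehicle range. The log2 fold change was -0.88 (SE 0.053, limma adjusted p = 4.78e-07), a 1.84-fold lower mean with JIB-04.

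The neighbouring beta genes TUBB2A and TUBB2B, which are linked to the nervous system and are near-identical in coding sequence, went in opposite directions. TUBB2A measured 169, 164, 162 and 161 FPKM with JIB-04, against 69.3, 61.3, 62.5 and 58.7 FPKM with vehicle. It was 2.60-fold higher in the treated libraries, the only rise of at least 2-fold among the 10 genes, with a log2 fold change of 1.38 (SE 0.054, limma adjusted p = 3.7e-08). TUBB2B measured 34.4, 32.5, 31.6 and 31.9 FPKM with JIB-04, against 55.6, 49.2, 49.5 and 48.1 FPKM with vehicle. All 4 treated libraries were under the vehicle range, with a log2 fold change of -0.63 (SE 0.059, limma adjusted p = 9.63e-06).

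TUBB3, the beta isotype widely used as a neuronal marker, and TUBB6, a beta isotype found in many non-neuronal tissues, changed little in level. TUBB3 was at 282, 294, 268 and 273 FPKM with JIB-04 and at 272, 245, 241 and 235 FPKM with vehicle. One vehicle library, replicate 1, overlapped the treated range. The log2 fold change was 0.17 (SE 0.053) and passed the limma test at an adjusted p of 0.0165, whereas the exact two-sided permutation test gave p = 0.0571. After rescaling to TPM, which raised log2 fold changes by a median of 0.16, it was 0.33 with a limma adjusted p of 0.000237. TUBB6 was at 249, 257, 215 and 224 FPKM with JIB-04 and at 251, 232, 231 and 228 FPKM with vehicle. The groups overlapped fully, with a log2 fold change of 0.003 (SE 0.063, limma adjusted p = 0.969), but after rescaling to TPM the change was 0.17 with a limma adjusted p of 0.0214, so that no direction is given for this gene.

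TUBG1, the gamma-tubulin from which the nucleating ring is built, was lower by more than 2-fold. It was at 30.1, 31.7, 30.7 and 31.4 FPKM with JIB-04 and at 66.6, 66.2, 62.7 and 67.9 FPKM with vehicle. The treated values lay within 2 FPKM of each other and far from the vehicle values. The log2 fold change was -1.07 (SE 0.045, limma adjusted p = 5.47e-08), and -0.91 after rescaling to TPM, which leaves the gene short of 2-fold on that scale. For each of the 8 genes without overlap the exact two-sided permutation test gave p = 0.029, the smallest that 4 against 4 libraries allow.

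**Figure D2:**
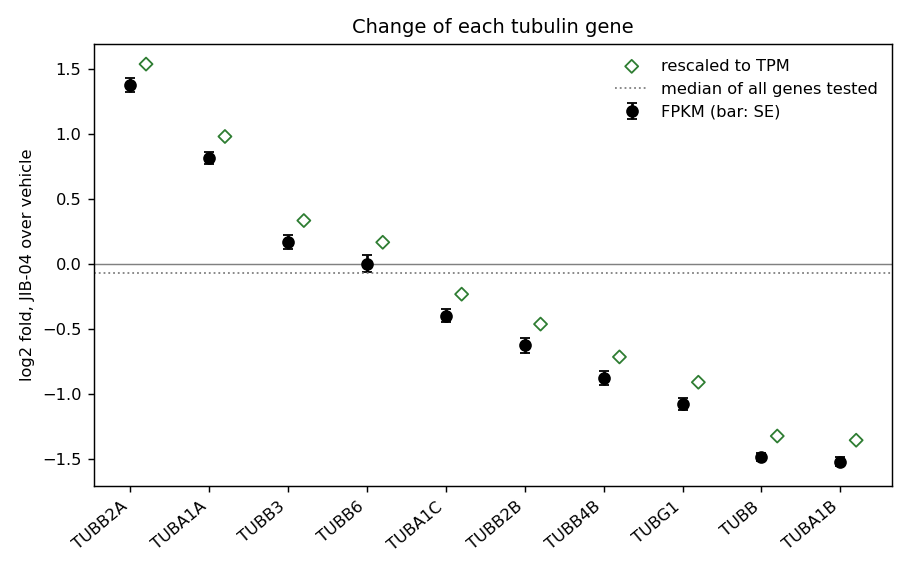
Log2 fold change of each tubulin gene, JIB-04 over vehicle, on log2(FPKM + 0.5) (black points with SE, n = 4 libraries a group) and after rescaling to TPM (open green diamonds). The dotted line is the median of all genes tested, at -0.066. TUBB2A, TUBA1A and TUBB3 lie above 0 and TUBA1C, TUBB2B, TUBB4B, TUBG1, TUBB and TUBA1B below it on either scale, while TUBB6 is at 0.003 on the FPKM scale.

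These changes altered the order of the tubulin transcripts. FPKM are per length of transcript, so levels of different genes can be set side by side. With JIB-04 the order ran TUBA1B, TUBA1A, TUBB, TUBA1C, TUBB4B, TUBB3, TUBB6, TUBB2A, TUBB2B and TUBG1. The neighbours TUBA1B and TUBA1A overlapped between libraries, as did TUBB2B and TUBG1, and all other neighbours were separate. With vehicle the order ran TUBA1B, TUBB, TUBA1C, TUBB4B, TUBA1A, TUBB3, TUBB6, TUBG1, TUBB2A and TUBB2B, with overlaps between TUBA1C and TUBB4B, between TUBB3 and TUBB6, and between TUBG1 and TUBB2A.

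Added together, alpha and beta transcripts were both lower after treatment. The 3 alpha genes summed to 3377 ± 94.3 FPKM with JIB-04 and 5567 ± 236 FPKM with vehicle (SD, n = 4 each). The 6 beta genes summed to 2085 ± 74.6 FPKM with JIB-04 and 3980 ± 111 FPKM with vehicle. Alpha and beta together took 0.451% of all FPKM in the treated libraries and 0.703% in the vehicle libraries. The ratio of summed alpha to summed beta was 1.62 with JIB-04 (1.545 to 1.706 over the libraries) and 1.398 with vehicle (1.367 to 1.436), without overlap. These sums are descriptions and were not tested.

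Within each class, the share of the leading isotype was lower with JIB-04, a comparison in which the scaling of the library cancels. TUBA1A made up 38.7% of alpha transcripts with JIB-04 (38.28% to 39.19%) and 13.3% with vehicle (13.17% to 13.68%). TUBA1B made up 40.01% with JIB-04 (39.82% to 40.17%) and 69.6% with vehicle (68.34% to 70.3%). TUBA1C, although lower in level, took 21.3% with JIB-04 and 17.04% with vehicle, with no overlap between libraries.

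Among the beta transcripts, TUBB made up 42.6% with JIB-04 (41.65% to 43.66%) and 62.6% with vehicle (60.89% to 63.45%). The shares of TUBB3, at 13.4% with JIB-04 and 6.24% with vehicle, and of TUBB6, at 11.3% with JIB-04 and 5.92% with vehicle, were higher in every treated library although their FPKM overlapped. TUBB2A took 7.86% with JIB-04 and 1.58% with vehicle. TUBB2B, the lowest of the 6 beta genes, took 1.56% with JIB-04 and 1.27% with vehicle. TUBB4B fell in step with the beta sum, at 23.3% with JIB-04 (22.35% to 23.92%) and 22.4% with vehicle (21.98% to 23.21%), ranges that overlap.

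**Figure D3:**
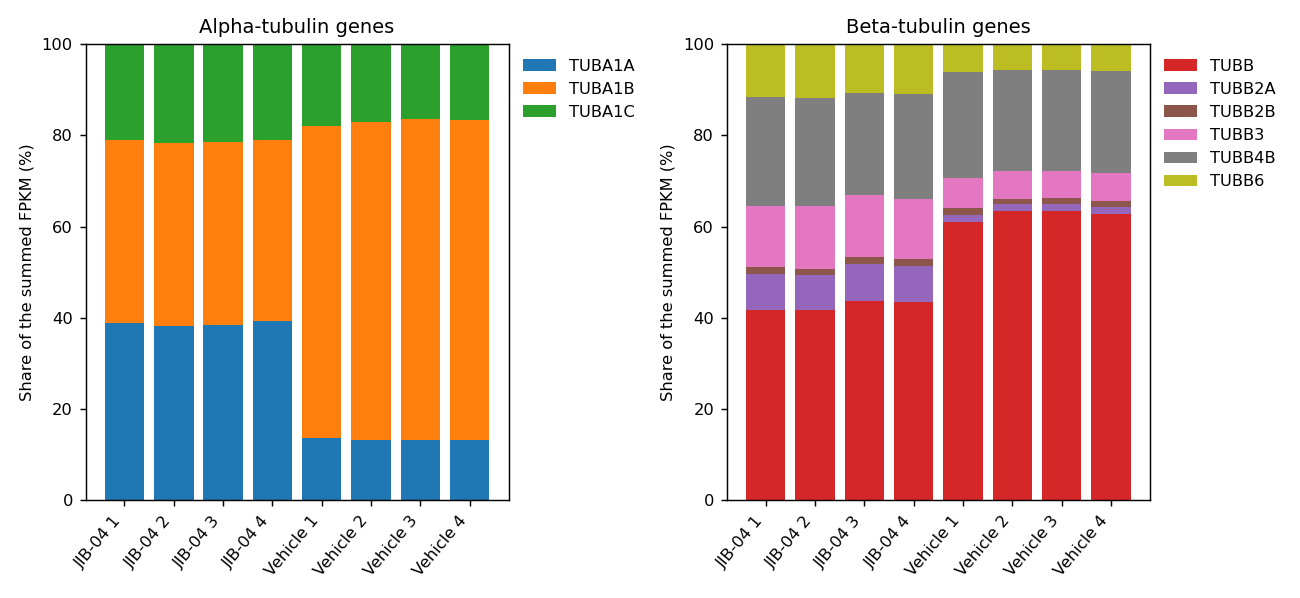
Share (%) of each gene in the summed FPKM of the 3 alpha-tubulin genes (left) and of the 6 beta-tubulin genes (right), 1 bar a library, with the 4 JIB-04 libraries left of the 4 vehicle libraries. TUBA1A takes 38.7% of the alpha sum on average with JIB-04 and 13.3% with vehicle, and TUBB 42.6% of the beta sum with JIB-04 and 62.6% with vehicle.

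Ratios between 2 genes of the same library were compared for 6 pairs, to ask whether related isotypes responded to different degrees. TUBA1A to TUBA1B stood at 0.966 ± 0.014 with JIB-04 and 0.191 ± 0.0059 with vehicle (SD, n = 4 each), a log2 difference of 2.34 (SE 0.024). TUBA1C to TUBA1B stood at 0.533 with JIB-04 and 0.245 with vehicle, a log2 difference of 1.12 (SE 0.039). Relative to TUBA1B, then, both other alpha genes were higher in the treated libraries.

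TUBB2A exceeded its neighbour TUBB2B 5.03 times with JIB-04 (4.907 to 5.126) and 1.24 times with vehicle (1.22 to 1.263), a log2 difference of 2.00 (SE 0.016). TUBB3 to TUBB was 0.314 with JIB-04 and 0.0997 with vehicle, with a log2 difference of 1.66 (SE 0.052), and TUBB6 to TUBB was 0.266 with JIB-04 and 0.0946 with vehicle, with a log2 difference of 1.49 (SE 0.065). TUBB4B to TUBB differed least, at 0.546 with JIB-04 and 0.358 with vehicle, a log2 difference of 0.61 (SE 0.051). In each of the 6 pairs the 4 treated libraries lay above the 4 vehicle libraries, and the exact two-sided permutation test gave p = 0.029, both before and after Benjamini-Hochberg adjustment over the 6 pairs, the smallest value this design allows. The ranges of the single genes already fix this separation in all 6 pairs, so the test adds nothing to the levels given above. In TUBA1A to TUBA1B, TUBB2A to TUBB2B and TUBB3 to TUBB, the genes changed in opposite directions. The pairs were chosen with earlier results of these data known.

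**Figure D4:**
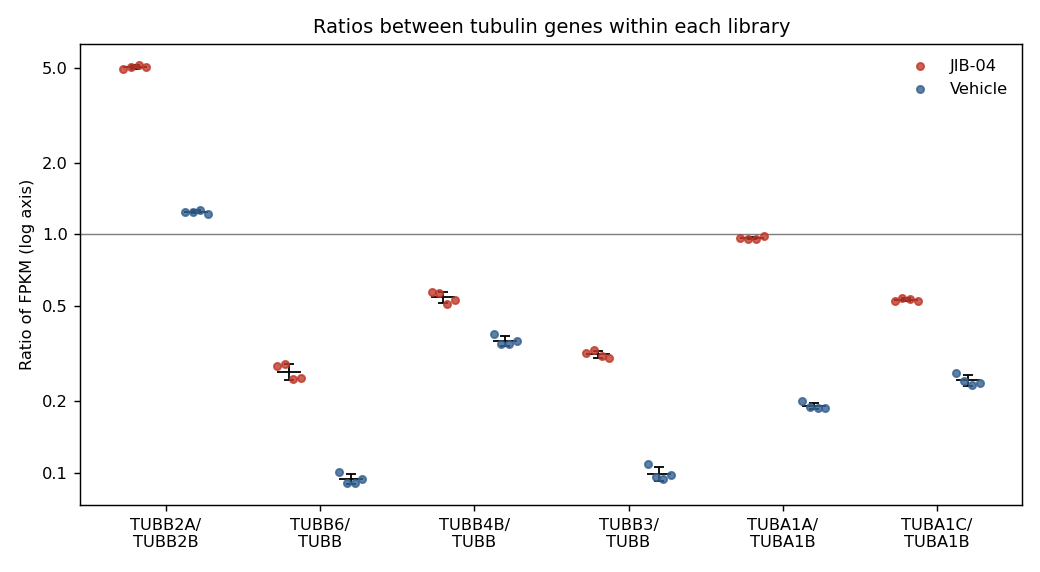
Ratio of FPKM (log axis) between 2 tubulin genes in each library, for 6 pairs. Points are libraries, JIB-04 in red left of vehicle in blue, with mean and SD in black (n = 4 each). In every pair the treated points lie above the vehicle points, and TUBA1A reaches parity with TUBA1B (0.966) only in the JIB-04 libraries.

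Pseudogenes that share stretches with the tubulin genes were measured beside them. Of 42 tubulin pseudogene entries, 14 were listed at 0 in every library and 8 had a mean of at least 5 FPKM. TUBBP1, a processed copy that holds 16.1% of the 50-base stretches of TUBB, was at 147 FPKM with JIB-04 and 431 FPKM with vehicle, with a log2 fold change of -1.55 (limma adjusted p = 3.82e-09) beside -1.49 for TUBB. TUBBP2 (-1.82) and TUBBP6 (-1.45) were also lower, as was TUBAP2, at 158 FPKM with JIB-04 and 338 FPKM with vehicle (-1.09), and TUBG1P (-0.64). TUBB2BP1 was higher, at 14.9 FPKM with JIB-04 and 9.87 FPKM with vehicle (0.60), and so was TUBB8P8, at 12.2 FPKM with JIB-04 and 0.802 FPKM with vehicle (3.31). TUBAP4 had a log2 fold change of 0.42 and did not pass (adjusted p = 0.0972). How many of these reads belong to the parent genes was not tested.

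Of the 13 other tubulin genes, 7 passed the filter on level. Lower with JIB-04 were TUBB4A (9.98 FPKM with JIB-04 and 25.7 FPKM with vehicle, log2 fold change -1.33), TUBG2, the second gamma gene (-0.57), TUBA4A (104 FPKM with JIB-04 and 142 FPKM with vehicle, -0.44) and the epsilon-tubulin gene TUBE1 (-0.39). TUBB8, known from the human oocyte, was higher at a low level, at 2.10 FPKM with JIB-04 and 0.481 FPKM with vehicle (1.37). TUBA8 (0.28, adjusted p = 0.0607) and the delta-tubulin gene TUBD1 (18.3 FPKM with JIB-04 and 18 FPKM with vehicle) did not pass. The 7 genes had a median log2 fold change of -0.39, against -0.066 for all genes tested. Of all genes tested, 38.0% were lower and 34.2% were higher.

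The partners of tubulin were read from 4 lists, whose counts stand beside the 38.0% lower and 34.2% higher of all genes tested and the overall median of -0.066. Of 16 genes that fold tubulin or sense its nascent chains, 5 were lower, 3 were higher and 8 did not pass, with a median log2 fold change of -0.08. TBCB, the cofactor that binds alpha-tubulin, was at 70.1 FPKM with JIB-04 and 155 FPKM with vehicle (-1.14), and TBCD, the cofactor that binds beta-tubulin, at 32.5 FPKM with JIB-04 and 66.1 FPKM with vehicle (-1.01). PFDN2, a subunit of the chaperone prefoldin, was higher (462 FPKM with JIB-04 and 317 FPKM with vehicle, 0.54). TTC5, the sensor of the nascent chain described above, was at 24.6 FPKM with JIB-04 and 24.1 FPKM with vehicle (0.02, limma adjusted p = 0.804). CNOT11, also listed for autoregulation, was lower, at 57.0 FPKM with JIB-04 and 71.8 FPKM with vehicle (-0.32, limma adjusted p = 0.00357). This was the smallest of the 5 decreases in the list. After rescaling to TPM, 4 genes of the list were lower and 5 were higher. SCAPER, listed with CNOT11, did not pass (-0.09, limma adjusted p = 0.727). CNOT11 and SCAPER were named after their values were seen.

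Partners of gamma-tubulin were mostly lower alongside TUBG1. Of 20 genes of the gamma-tubulin ring complex and of its recruitment, 14 were lower, 4 were higher and 2 did not pass, with a median of -0.52. HAUS4, a subunit of the augmin complex that branches spindle microtubules, was at 19.2 FPKM with JIB-04 and 81.3 FPKM with vehicle (-2.07), and HAUS7, of the same complex, at 32.2 FPKM with JIB-04 and 85.6 FPKM with vehicle (-1.39). TUBGCP3, a core subunit of the ring, was at 28.3 FPKM with JIB-04 and 55.1 FPKM with vehicle (-0.95). The 4 higher genes were AKAP9, HAUS3, HAUS6 and HAUS2. MZT2A and MZT2B are near-identical copies, so that the split of reads between them is uncertain.

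Of 21 enzymes that modify tubulin, 17 passed the filter, of which 9 were lower, 3 were higher and 5 did not pass, with a median of -0.29. HDAC6, which removes acetyl groups from alpha-tubulin, was at 15.8 FPKM with JIB-04 and 49.99 FPKM with vehicle (-1.63), whereas ATAT1, which adds them, was at 24.0 FPKM with JIB-04 and 20.7 FPKM with vehicle (0.21, limma adjusted p = 0.0343; it was named after its value was seen, as the counterpart of HDAC6). SIRT2, another deacetylase of this list, went the other way to HDAC6. It was at 53.8 FPKM with JIB-04 and 36.4 FPKM with vehicle (0.56, limma adjusted p = 1.05e-05), and was also named after its value was seen. AGBL5, a carboxypeptidase that trims glutamates from tubulin tails, was lower (-1.32), as was TTLL12, a member of the tubulin tyrosine ligase-like family (-1.12). Microtubule-associated proteins were the one partner list with more genes higher than lower on the FPKM scale: of 26 tested of 31, 9 were lower, 13 were higher and 4 did not pass, with a median of 0.23. MAP1A fell (30.5 FPKM with JIB-04 and 85.0 FPKM with vehicle, -1.47), as did the doublecortin-like kinase DCLK1 (0.558 FPKM with JIB-04 and 4.72 FPKM with vehicle, -2.30), while MAP7D2, of the family that recruits kinesin, rose (16.6 FPKM with JIB-04 and 3.94 FPKM with vehicle, 1.94). All log2 fold changes in this paragraph and the 3 before it are limma values on log2(FPKM + 0.5), and each gene called lower or higher had an adjusted p under 0.05.

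**Figure D5:**
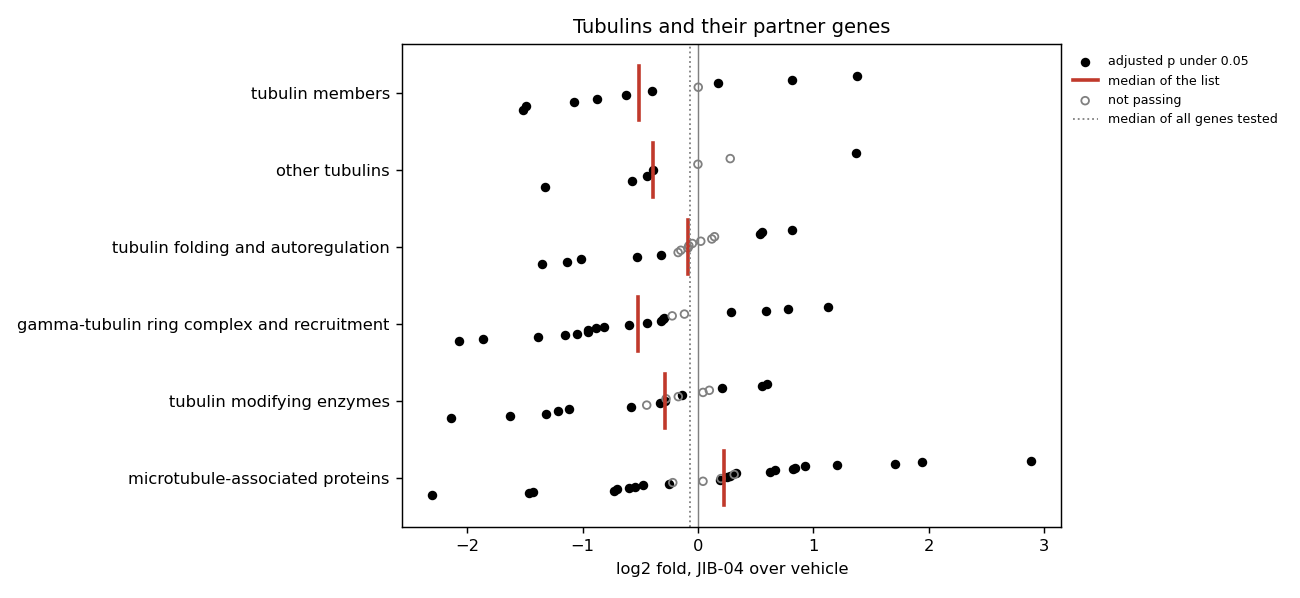
Log2 fold change, JIB-04 over vehicle, of every tested gene of the tubulin genes (top row) and of 5 lists of related genes. Filled points passed limma at an adjusted p under 0.05, open points did not, red bars are list medians and the dotted line is the median of all genes tested. The medians are -0.51 for the 10 tubulin genes, -0.52 for the gamma-tubulin ring complex and 0.23 for the microtubule-associated proteins.

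Markers of the neuronal lineage, to which TUBB3, TUBB2A, TUBB2B and TUBA1A are often linked, did not move together. SNAP25, of the synaptic vesicle machinery, was higher (15.4 FPKM with JIB-04 and 4.17 FPKM with vehicle, log2 fold change 1.76). The synaptic vesicle protein SYP (41.1 FPKM with JIB-04 and 56.6 FPKM with vehicle, -0.46) and the neurofilament NEFM (104 FPKM with JIB-04 and 163 FPKM with vehicle, -0.65) were lower by limma at an adjusted p under 0.05. NEFL did not pass (-0.27, adjusted p = 0.0903), and RBFOX3, which marks mature neurons, stayed under 1 FPKM in every library. The part of these markers in the tubulin changes was not tested.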

How the data were processed

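PolyA RNA of 8 samples of A673 cells was sequenced by the authors, who mapped the sequences with GSNAP on GRCh38, handled the alignments in SAMtools and derived FPKM in Cufflinks. The deposited FPKM were used as given. Of 66095 entries for 65975 identifiers, the values of 117 repeated identifiers were summed, 33 gene names turned into dates were restored, and 13 genes with a placeholder value were left out. FPKM do not give the read depth, and errors are therefore the variation over the 4 libraries of a group. Because Cufflinks divides reads that fit several genes, levels of near-identical tubulins depend on that division.

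The 2 groups were compared by limma 3.58.1 in R 4.3.3 (lmFit, eBayes with trend) on log2(FPKM + 0.5) for genes whose mean was 1 FPKM or more, which understates changes of low genes. Benjamini-Hochberg adjustment ran over all genes tested. The fit was tested on simulated data in which few genes changed, unlike here, so the simulation cannot vouch for the fit under these conditions. Single genes and ratios were compared by an exact two-sided permutation test (scipy 1.17.1). The tubulin genes, gene lists and pairs were chosen with earlier results of these data known. Named were all 10 tubulins, all other tubulin genes tested and tubulin pseudogenes with a mean of at least 5 FPKM. Gamma-tubulin complex genes, whose symbols end alike, were excluded from the pseudogenes. For each list its 3 genes of smallest adjusted p were also named. TTC5, CNOT11, SCAPER, ATAT1, SIRT2 and the cell type markers were added. Alternatives were pseudocounts of 0.1 and 1, no filter or 5 FPKM, TPM, median-ratio and quantile scaling, analysis of variance of FPKM, a replicate block, summed identifiers, wider class sums and each library left out. Coding sequences came from GENCODE 29 and promoter windows from RefSeq (GRCh38.p14); protein sequences were not used here, and 1 stretch of coding sequence is not reported here. Python 3.11.15 (pandas 2.3.3, numpy 2.4.6, matplotlib 3.10.9) made the figures.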

Additional observations from a re-analysis of the deposited data

Results flagged for a closer look

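In 44 groups of 4 libraries (22 tubulin quantities in each group), 2 held a library set apart from the other 3 by a gap, relative to the range of the group, above Dixon's critical value, a number near that which chance gives at about 1 in 20 groups. TUBA1A was at 1376 FPKM in JIB-04 replicate 4, against a nearest value of 1288 FPKM in the other treated libraries. The share of TUBA1A in the alpha sum was 13.7% in vehicle replicate 1, against a nearest value of 13.2% in the other vehicle libraries.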

How the results depend on the processing

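Counts of tubulin genes passing the test were 6 lower and 3 higher when any 1 library was left out. Of 603 values recomputed under an alternative, 587 were rated the same, 15 moved, 1 became stronger and 0 reversed. A count was rated the same within 1.5 times its main value. Sums, shares and the alpha to beta ratio had to stay within the spread of the groups. The fold change of a gene, or a ratio of a pair, had to keep its side of the threshold. Pair ratios with 1 library left out had to stay within the spread. A change of sign in a gene that passed in neither setting, as for TUBB6, was not rated as reversed. After rescaling to TPM, the summed alpha fold change on the log2 scale was -0.56 (main value -0.72) and the summed beta value was -0.77 (-0.93), TUBB6 passed at 0.17 (adjusted p = 0.0214) and 4 tubulin genes were higher, TUBG1 at -0.91 fell short of 2-fold, and 7061 genes were higher and 5424 lower of all tested, against 5964 and 6640. Over all alternatives the adjusted p of TUBB3 ranged between 0.000237 and 0.0476, and TUBB6 ranged between -0.04 and 0.17. Adding the other genes and pseudogenes of a class moved some differences in share beyond the spread of the groups. These were the differences of TUBA1A (23.5 percentage points, against 25.3), TUBA1B (-27.0, against -29.6), TUBB (-16.6, against -20.0), TUBB2A (5.75, against 6.28) and TUBB3 (6.66, against 7.15). TUBB4B, at 1.34 percentage points against 0.847, was rated the same, as were TUBA1C, TUBB2B and TUBB6. Of the other tubulins, 3 were higher with no filter, 0 at a mean of at least 5 FPKM, 2 after TPM or median-ratio scaling, by analysis of variance or without vehicle replicate 1, against 1; of the folding genes, 5 were higher after TPM or median-ratio scaling, against 3. Samples with the same replicate number did not deviate together (correlations of 0.082, -0.058, 0.026 and -0.0024), so the numbers give no pairing, and with a replicate block the counts were again 3 higher and 6 lower, and over all genes 5900 and 6618. The ratios between genes were also taken after rescaling to TPM, an alternative chosen after seeing the data. With 1 library left out, an exact test of 3 against 4 cannot pass the threshold, so the ratios were given there as values. The cause of these shifts was not tested. Depth is not given, the independence of the replicate cultures is not stated, reads shared between near-identical tubulins cannot be reassigned from FPKM, and transcript levels say nothing of protein.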
